A study of Drosophila melanogaster with 15 samples.

Results

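Ion channels set how an olfactory receptor neuron turns receptor current into spikes, and 39 channel genes and channel subunits were followed in the antennae of male Drosophila melanogaster. They were chosen by name, as sodium, potassium, calcium, cyclic-nucleotide-gated and chloride channel genes known from work on neuronal excitability, and all 39 were found among the 17490 genes of the count tables. They comprise 5 sodium channel genes and their subunits, 13 voltage-gated and calcium-activated potassium channel genes and their subunits, 7 inward rectifier and leak potassium channel genes, 5 calcium channel genes, 3 hyperpolarization-activated or cyclic-nucleotide-gated channel genes and 6 chloride channel genes.

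In an insect neuron, a voltage-gated sodium channel drives the upstroke of the spike and potassium channels repolarize the membrane. Calcium channels admit the calcium that releases transmitter, and leak and inward rectifier potassium channels set the resting potential. Chloride channels and transporters act in neurons, glia and support cells, and most of these genes are used in many tissues besides the antenna.

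RNA-seq was run on antennae of 7-day-old males in 5 groups, with 180 antennae from 90 flies per sample. White-eyed w1118 males were either group-housed (w1118 GH, 25 to 30 males per vial from eclosion, 3 samples) or single-housed from the pupal stage (w1118 SH, 3 samples). The mutants were group-housed: Or47b1 homozygotes that also carried 2 copies each of Or47b-GAL4 and UAS-mCD8GFP (3 samples), Or67dGAL4 homozygotes with UAS-mCD8GFP, in which GAL4 replaces the receptor gene (3 samples), and w+ fruLexA/fru4-40 males, which lack the male-specific Fruitless proteins (2 samples). The mutants differ from w1118 in genetic background, eye colour and transgenes as well as in the named gene, and these cannot be told apart. The 3 mutants and w1118 SH were each compared with the same w1118 GH samples, so the comparisons are not independent.

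Total counts per sample ran from 8570425 to 14908299, and the 39 genes took between 0.708% and 1.005% of them. Or47b fell by 7.43 on the log2 scale in Or47b1 and Or67d fell by 7.00 in Or67dGAL4, while whole-gene fru counts did not pass the test in fruLexA/fru4-40 (adjusted p = 0.44, edgeR). Every neuron marker and every marker of olfactory support cells was detected in each group. The summed level of the 8 neuron markers was 1921 to 2040 RPKM in w1118 GH, 2097 to 2215 in w1118 SH males, 1888 to 2132 for Or47b1, 1712 to 1827 for Or67dGAL4 and 1517 to 1605 for fruLexA/fru4-40, and that of the 5 support cell markers was lowest in w1118 GH, at 9012 to 10223, and 12338 to 15447 in the mutants. Most of the neuron sum was Orco alone, at 1352 to 1426 RPKM in w1118 GH, 1521 to 1641 in w1118 SH and 1344 to 1526 in Or47b1. In Or67dGAL4 Orco read 1097 to 1288 and in fruLexA/fru4-40 983 and 1110. Most of the support cell sum was Obp83a and Obp83b, so neither sum stands for all its markers. Summed markers of the second antennal segment, which lies next to the dissected olfactory segment, were at most 11.3 RPKM. Those of muscle, a tissue that uses several of these channels, were 12.3 to 120 RPKM in w1118 GH, 3.73 to 13.7 in w1118 SH and 24.9 to 109 in the mutants, and their part in the results was not tested. In whole antennae, fewer cells of a type and less RNA per cell cannot be told apart. A deposited replicate 1 of fruLexA/fru4-40 carries a quality warning and stood far apart in many of these genes, so it enters no comparison below and is described at the end.

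RPKM, the level used below, is the count divided by the exon length in kilobases and by the library size in megareads, after TMM scaling, which makes libraries of different composition comparable. In w1118 GH the 39 genes spanned more than 3 orders of magnitude. Best1, a calcium-activated bestrophin chloride channel, was the highest at 131 ± 11.1 RPKM (SD, n = 3). Next came para, the only voltage-gated sodium channel gene of the fly that carries the spike (75.0 ± 9.62), slo, the BK calcium-activated potassium channel (67.8 ± 5.81), Irk2, an inward rectifier (67.1 ± 2.54), and Ih, the hyperpolarization-activated cation channel (63.2 ± 4.09). In all, 8 genes were above 50 RPKM, 19 lay between 10 and 50, 4 between 2.5 and 10, and 8 at or below 2.5. Most neighbours in this order could not be ranked, since the sample ranges overlapped in 28 of 38 neighbouring pairs, those of para, slo, Irk2 and Ih among them. The most highly expressed gene of the calcium class was stj, the alpha2-delta subunit, at 22.3 ± 0.591 RPKM. CngA, a cyclic-nucleotide-gated channel subunit, had 2 to 10 counts in every sample and was the only one of the 39 under the filter on low counts, which left 38 genes to test. The potassium leak channels Ork1, Task6 and Task7 were also near the limit, with between 0 and 40 counts per sample in the 14 samples.

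**Figure D1:**
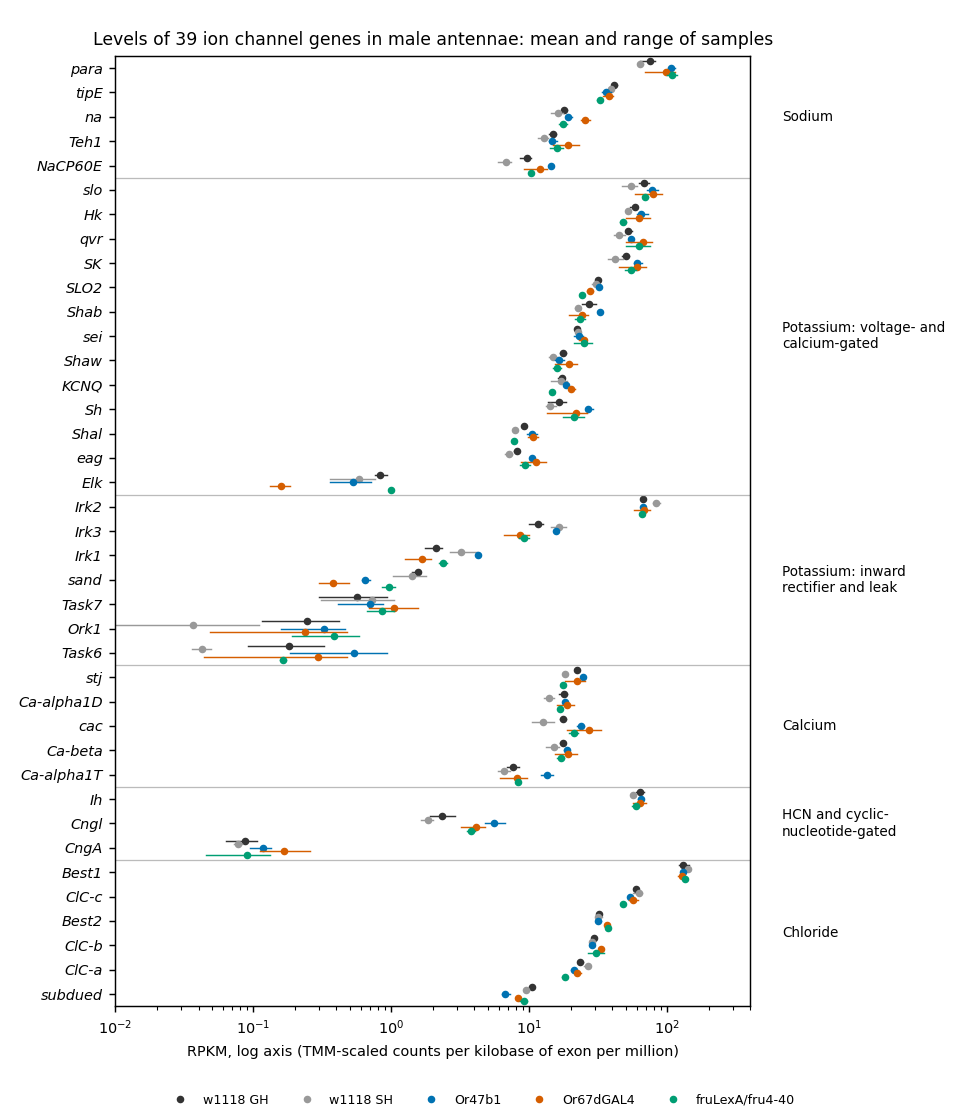
Mean (point) and range over samples (line) of the level of each of the 39 genes in RPKM, on a log axis, by channel class and group. A range that reaches the left edge includes 0 counts (Ork1 in w1118 SH). Levels run from 0.0871 RPKM for CngA to 131 for Best1 in w1118 GH, and for most genes the 5 groups lie close together.

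Between single-housed and group-housed w1118 males, none of the 38 channel genes passed the test (edgeR quasi-likelihood, adjusted p under 0.05), beside 0.994% of the 10358 genes tested. At an unadjusted p under 0.05 there were 13 of 38, beside 15.8% of all genes. DESeq2 called 3 of the 38 (7.89%, beside 3.52% of the 10270 genes to which it gave an adjusted p): NaCP60E and Ca-alpha1D lower and Irk2 higher in w1118 SH. The values leaned to one side, with 30 of 38 genes lower in w1118 SH and a median log2 difference of -0.20, where 5213 of all 10358 were lower and the median was -0.001. All 5 sodium channel genes, all 5 calcium channel genes and 12 of the 13 voltage-gated and calcium-activated potassium channel genes had the lower mean in w1118 SH, while Irk1, Irk2 and Irk3 had the higher one. In 23 of the 38 genes (60.5%) the ranges of the 3 and 3 samples did not overlap, beside 22.0% of all genes.

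The clearest of these separations were small. NaCP60E, a sodium channel relative of para, read 8.52, 10.2 and 10.3 RPKM in w1118 GH and 7.35, 7.06 and 5.88 in w1118 SH (log2 fold change -0.52, SE 0.14, adjusted p = 0.099, edgeR). Ca-alpha1D, the L-type calcium channel, read 16.4, 18.6 and 18.8 against 14.3, 15 and 12.8 RPKM (-0.35, SE 0.10, adjusted p = 0.11). Irk2 went the other way, from 67.5, 64.4 and 69.4 to 87.9, 78.6 and 83.2 RPKM (0.31, SE 0.09, adjusted p = 0.12). These tests share their estimate of the spread with the other groups, and without Or67dGAL4 replicate 1, described below, NaCP60E, Ca-alpha1D and stj passed as lower (adjusted p = 0.020, 0.037 and 0.020), while without Or67dGAL4 replicate 2 Irk2 alone passed, as higher (adjusted p = 0.038).

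In Or47b1 antennae 9 of the 38 genes passed the test against w1118 GH, 7 higher and 2 lower, or 23.7% beside 20.4% of all genes (10.5% higher and 9.97% lower). Those higher were para, NaCP60E, Sh, eag, Irk1, Ca-alpha1T and Cngl, and those lower were sand and subdued. In Or67dGAL4 antennae 11 of 38 passed, 6 higher and 5 lower, or 28.9% beside 29.5% of all genes (14.4% higher and 15.1% lower): Shal, eag, cac, na, Cngl and Best2 rose, and Elk, SLO2, Irk3, sand and subdued fell. In fruLexA/fru4-40 antennae 8 of 38 passed, 3 higher and 5 lower, or 21.1% beside 30.8% (15.5% higher and 15.3% lower): para, Cngl and Best2 rose, and tipE, SLO2, stj, ClC-a and ClC-c fell. Against this reference the shares for the channel genes were near the background in Or47b1 and Or67dGAL4 and lay below it in fruLexA/fru4-40. With w1118 SH as the reference, which differs from the mutants in housing too, 20 of 38 passed in Or47b1 (15 higher and 5 lower, 52.6% beside 28.4% of all genes), 25 in Or67dGAL4 (18 and 7, 65.8% beside 37.5%) and 14 in fruLexA/fru4-40 (8 and 6, 36.8% beside 34.0%). Against w1118 GH, the counts at an unadjusted p under 0.05 were 16, 16 and 12 of 38, beside 32.7%, 41.1% and 42.4% of all genes. The ranges of the samples did not overlap in 21 (55.3%, beside 40.8%), 14 (36.8%, beside 42.0%) and 17 (44.7%, beside 56.6%). Median log2 differences were 0.10, 0.13 and 0.01, beside -0.01, -0.02 and 0.04 over all genes. The balance of directions moved with the scaling: on total counts alone the calls were 5 higher and 4 lower for Or47b1, 4 and 5 for Or67dGAL4, and 2 and 6 for fruLexA/fru4-40. That of all genes moved too. Of all calls, 51.2%, 48.8% and 50.2% were higher with TMM scaling and 40.0%, 40.0% and 44.0% on total counts, in the same order. Neuron markers moved as well: Ir25a fell in Or47b1, ChAT, Orco and Ir25a fell and elav rose in Or67dGAL4, and brp, ChAT, Orco and Ir25a fell in fruLexA/fru4-40, beside no call for the 8 in w1118 SH. Of the 5 support cell markers 3 rose and 1 fell in Or47b1, 3 rose in Or67dGAL4 and 4 rose in fruLexA/fru4-40, and of the 5 glial markers 1 rose in each (moody in the receptor mutants, Gs2 in fruLexA/fru4-40). Markers of other cells were low but also moved: the 4 photoreceptor markers summed to 1.52 to 2.86 RPKM in w1118 GH, 1.59 to 12.7 in w1118 SH, 2.36 to 43.2 in Or47b1, 2.17 to 15.3 in Or67dGAL4 and 3.53 to 21.2 for fruLexA/fru4-40, with ninaE at 37.2 in Or47b1 replicate 3. Calls among them were ninaC higher in Or47b1 and lower in Or67dGAL4, and Rh4 higher in Or67dGAL4 and in fruLexA/fru4-40. The hemocyte marker NimC1 rose in Or47b1 and in fruLexA/fru4-40, within a summed level of 3.82 to 10.3 RPKM for the 3 hemocyte markers over the 14 samples. The muscle markers TpnC73F (Or67dGAL4) and Act88F (fruLexA/fru4-40) and the fat body marker Lsp2 (Or67dGAL4) were called higher as well. The part of these cells in the channel results was not tested.

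**Figure D2:**
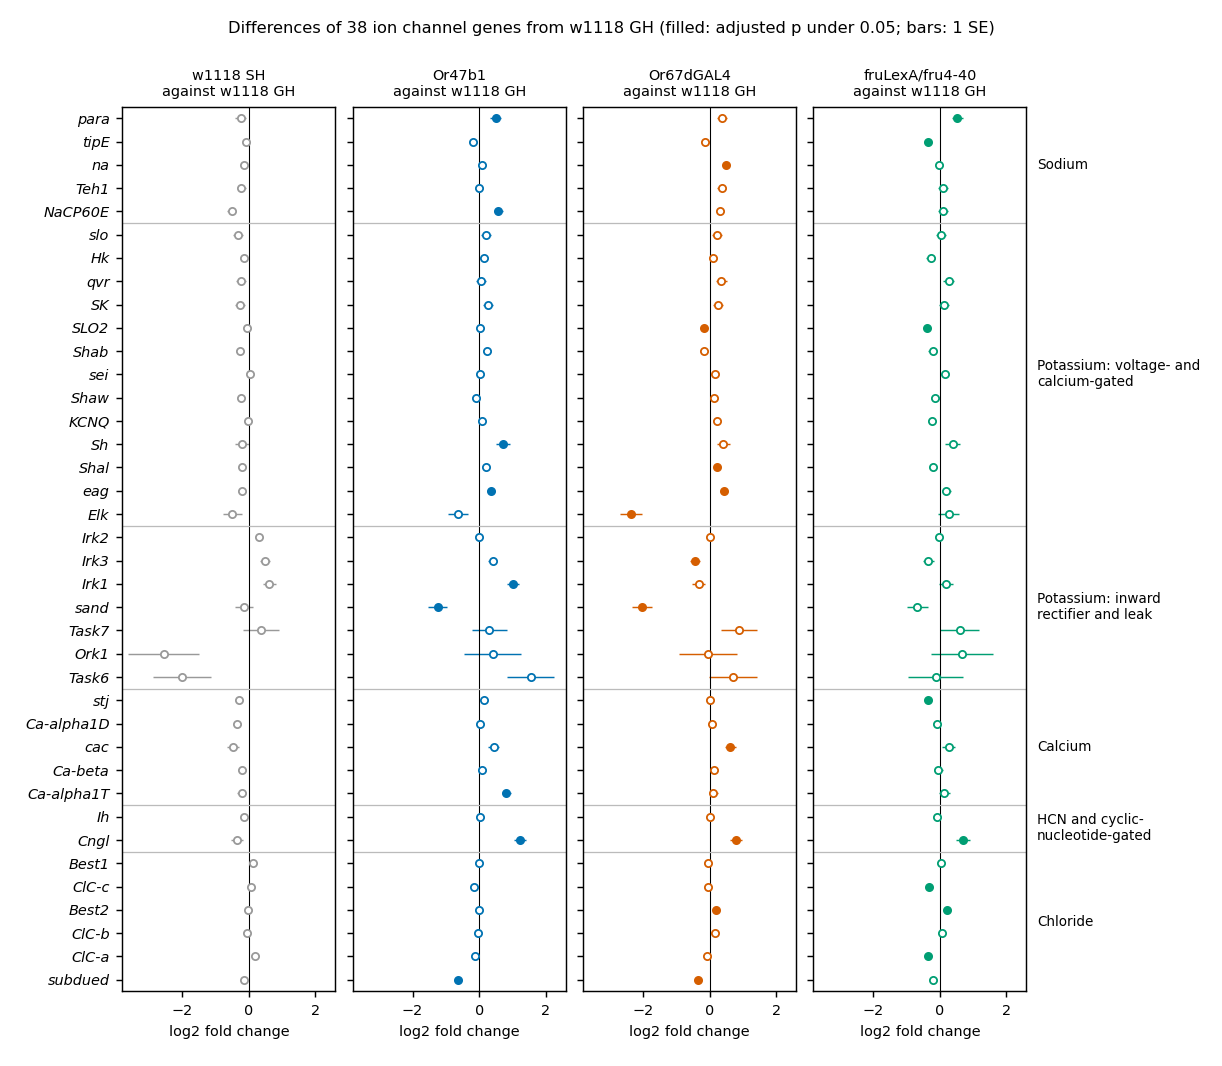
Log2 fold change against w1118 GH (x axis) of each of the 38 tested channel genes (y axis, by class) in w1118 SH and the 3 mutants, with bars of 1 SE and filled points where the adjusted p was under 0.05. No point is filled for w1118 SH, and the points farthest from 0 among the filled ones are Elk (-2.37) and sand (-2.02) in Or67dGAL4.

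Cngl, a cyclic-nucleotide-gated channel subunit, passed the test in each mutant (chrX:15386038-15441252, dm6). It read 1.92, 2.21 and 2.90 RPKM in w1118 GH and 1.85, 1.63 and 2.00 in w1118 SH. The mutant levels were 5.15, 4.80 and 6.68 for Or47b1, 3.18, 4.36 and 4.78 for Or67dGAL4, and 4.07 and 3.54 for fruLexA/fru4-40. Every mutant sample was above every w1118 sample. Against w1118 GH, the rise on the log2 scale was 1.24 for Or47b1 (SE 0.18, adjusted p = 0.00025, edgeR), 0.81 for Or67dGAL4 (SE 0.18, adjusted p = 0.0045) and 0.70 for fruLexA/fru4-40 (SE 0.20, adjusted p = 0.017). The last of these was lost without w1118 GH replicate 1 or without fruLexA/fru4-40 replicate 2 (0.57, adjusted p = 0.061, and 0.61, adjusted p = 0.15). Ih, the hyperpolarization-activated relative, was flat, at 55 to 69.6 RPKM over the 14 samples with no call in any comparison.

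Among the sodium channel genes, para (chrX:16455027-16533096) read 63.9, 79.8 and 81.2 RPKM in w1118 GH. Its level was 66.2, 61.3 and 61.3 in w1118 SH males, 104, 113 and 101 in Or47b1, 68.4, 110 and 113 in Or67dGAL4, with 117 and 99.8 in fruLexA/fru4-40. Or47b1 and fruLexA/fru4-40 lay above all w1118 samples, and Or67dGAL4 replicate 1 lay among the w1118 samples. The log2 fold change was 0.50 in Or47b1 (SE 0.16, adjusted p = 0.040, edgeR) and 0.53 in fruLexA/fru4-40 (SE 0.17, adjusted p = 0.034), and 0.37 in Or67dGAL4 did not pass (adjusted p = 0.092). Both calls were close to the threshold: the first was lost without any 1 of the w1118 GH or Or47b1 samples or w1118 SH replicate 2 (0.40 to 0.56, adjusted p 0.053 to 0.14), and the second without w1118 GH replicate 1 or either fruLexA/fru4-40 sample (0.42 to 0.64, adjusted p 0.051 to 0.25).

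NaCP60E (chr2R:24891614-24921677) rose in Or47b1, to 14.9, 13.9 and 14.5 RPKM from the w1118 GH values given above, with no overlap (log2 fold change 0.58, SE 0.13, adjusted p = 0.0080, edgeR). Its levels in Or67dGAL4 were 9.09, 13.5 and 13.2, and in fruLexA/fru4-40 10.6 and 9.96 RPKM. Between mutants it was lower in fruLexA/fru4-40 than in Or47b1 (-0.49, SE 0.15, adjusted p = 0.027), while the difference of Or67dGAL4 from Or47b1 did not pass (adjusted p = 0.16). Its exons overlap those of pain, a TRPA channel gene, whose log2 fold changes were 0.59 in w1118 SH (adjusted p = 0.035) and 0.29 in Or47b1 (adjusted p = 0.11), the opposite sign to NaCP60E in w1118 SH.

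The channel na, the fly NALCN sodium leak channel that depolarizes neurons at rest, was high in Or67dGAL4 (chrX:14266367-14277416). It read 17.2, 17.3 and 18.7 RPKM in w1118 GH, 14.3, 17.4 and 16.5 in w1118 SH males, 18.4, 18.4 and 20.3 in Or47b1, 24.6, 27.4 and 23.8 in Or67dGAL4, with 16.5 and 18.6 in fruLexA/fru4-40. The Or67dGAL4 range was above all others. The log2 fold change was 0.51 against w1118 GH (SE 0.08, adjusted p = 0.00066, edgeR) and 0.41 against Or47b1 (SE 0.08, adjusted p = 0.0034), and fruLexA/fru4-40 was lower than Or67dGAL4 by 0.53 on the log2 scale (adjusted p = 0.0021).

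The subunit gene tipE, whose product helps Para reach the membrane, fell in fruLexA/fru4-40 (chr3L:4188499-4193788). It read 41.7, 39.6 and 43.0 RPKM in w1118 GH, 38, 38.2 and 40.2 in w1118 SH males, 33.7, 35.5 and 38.9 in Or47b1, 34.3, 39.3 and 40.3 in Or67dGAL4, with 33.7 and 31.0 in fruLexA/fru4-40. The log2 fold change was -0.36 (SE 0.08, adjusted p = 0.0069, edgeR), and without fruLexA/fru4-40 replicate 3 it was -0.30 (adjusted p = 0.066). Thus para and its subunit tipE passed in opposite directions in fruLexA/fru4-40. Teh1, a tipE relative, did not pass in any comparison with w1118 GH and passed between mutants, at 14.8, 22.8 and 20.0 RPKM in Or67dGAL4 against 14.1, 16.0 and 14 in Or47b1 (0.39, SE 0.13, adjusted p = 0.048).

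Of the 13 voltage-gated and calcium-activated potassium channel genes, Sh and eag rose in Or47b1. Sh, the A-type channel Shaker (chrX:17924307-18063247), read 13.7, 16.8 and 18.4 RPKM in w1118 GH, 13.2, 13.7 and 15.6 in w1118 SH, and 25.8, 29.1 and 25.6 in Or47b1 (log2 fold change 0.72, SE 0.21, adjusted p = 0.029, edgeR). Its levels of 13.5, 25.7 and 26.4 in Or67dGAL4 and 24.7 and 17.6 in fruLexA/fru4-40 were spread over both of those ranges. The Or47b1 call was lost without w1118 GH replicate 1 or 2 or without any 1 of the Or47b1 samples (0.61 to 0.75, adjusted p 0.055 to 0.10).

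The ether-a-go-go channel eag (chrX:14955477-15009989) read 7.72, 8.45 and 8.41 RPKM in w1118 GH, 7.20, 7.45 and 6.68 in w1118 SH males, 10.2, 10.8 and 10.7 in Or47b1, 8.74, 13.1 and 11.6 in Or67dGAL4, with 10.1 and 8.56 in fruLexA/fru4-40. All mutant samples lay above all w1118 samples. The differences from w1118 GH were 0.37 for Or47b1 (SE 0.12, adjusted p = 0.046, edgeR), 0.45 for Or67dGAL4 (SE 0.12, adjusted p = 0.013) and 0.19 for fruLexA/fru4-40 (adjusted p = 0.30). The first was lost without any 1 of the 9 w1118 GH, w1118 SH or Or47b1 samples (0.33 to 0.39, adjusted p 0.054 to 0.14), and the second without Or67dGAL4 replicate 2 (0.32, adjusted p = 0.066).

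Its relative Elk showed the largest change by call, in Or67dGAL4 (chr2R:17873939-17926695). Elk was lowly expressed, at 0.776, 0.936 and 0.767 RPKM in w1118 GH, or 46 to 64 counts per sample. It read 0.762, 0.362 and 0.625 in w1118 SH, 0.514, 0.360 and 0.707 in Or47b1, and 1.01 and 0.970 in fruLexA/fru4-40. In Or67dGAL4 it stood at 0.183, 0.159 and 0.132 RPKM, or 6 to 9 counts, below every other sample. The log2 fold change was -2.37 against w1118 GH (SE 0.33, adjusted p = 0.00019, edgeR) and -1.72 against Or47b1 (SE 0.34, adjusted p = 0.0024), and fruLexA/fru4-40 was higher than Or67dGAL4 by 2.63 (SE 0.35, adjusted p = 0.00025) and higher than Or47b1 by 0.91 (SE 0.33, adjusted p = 0.049).

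Shal, the Kv4 channel (chr3L:19566851-19584568), split the mutants. It read 9.08, 9 and 9.14 RPKM in w1118 GH, 7.77, 8 and 8.01 in w1118 SH males, 10.4, 9.68 and 11.4 in Or47b1, 9.75, 11.6 and 10.7 in Or67dGAL4, with 7.53 and 8.04 in fruLexA/fru4-40. Its rise of 0.24 in Or67dGAL4 (SE 0.07, adjusted p = 0.027, edgeR) was lost without any 1 of the w1118 GH samples or Or67dGAL4 replicate 2 or 3 (0.18 to 0.26, adjusted p 0.055 to 0.12). It was lower in fruLexA/fru4-40 than in Or47b1 by 0.43 on the log2 scale (adjusted p = 0.0022) and lower than in Or67dGAL4 by 0.46 (adjusted p = 0.0021). KCNQ, the M-type channel, had the same order between mutants, with 15.1 and 14.4 RPKM in fruLexA/fru4-40 against 18.1 to 18.5 in Or47b1 (-0.31, adjusted p = 0.032) and 19.3 to 21.4 in Or67dGAL4 (-0.45, adjusted p = 0.0078), and passed in no comparison with w1118 GH.

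SLO2, a relative of the ion-activated BK channel slo (chr2R:10322195-10416996), read 30.4, 31.5 and 32.0 RPKM in w1118 GH, 32.7, 29.9 and 28.4 in w1118 SH males, 33.1, 32.3 and 31.0 in Or47b1, 26.4, 28.8 and 27.3 in Or67dGAL4, with 23.8 and 24.5 in fruLexA/fru4-40. The fall in fruLexA/fru4-40 was 0.38 on the log2 scale (SE 0.07, adjusted p = 0.0015, edgeR), with no overlap of the ranges. That in Or67dGAL4 was smaller, at -0.18 (SE 0.06, adjusted p = 0.037), and was lost without w1118 GH replicate 1, 2 or 3, w1118 SH replicate 3, Or67dGAL4 replicate 1 or 3, or fruLexA/fru4-40 replicate 2 or 3 (-0.18 to -0.16, adjusted p 0.056 to 0.15), and with w1118 SH as the reference (-0.14, adjusted p = 0.089). The other members of the class, slo, SK, Shab, Shaw, sei, KCNQ, the beta subunit Hk and the Shaker regulator qvr, passed in no comparison with w1118 GH. Between mutants Shab was lower in Or67dGAL4 and in fruLexA/fru4-40 than in Or47b1 (-0.42 and -0.47, adjusted p = 0.018 and 0.017), and Hk was lower in fruLexA/fru4-40 than in Or47b1 (-0.44, adjusted p = 0.027).

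The inward rectifiers, which pass potassium more easily into than out of the cell, were ordered Irk2, Irk3, Irk1 in every group. Irk1 (chr3R:23168317-23185642) read 1.74, 2.31 and 2.25 RPKM in w1118 GH, 2.77, 2.66 and 4.20 in w1118 SH males, 4.09, 4.41 and 4.22 in Or47b1, 1.25, 1.94 and 1.80 in Or67dGAL4, with 2.23 and 2.53 in fruLexA/fru4-40. The Or47b1 samples lay above all w1118 GH, Or67dGAL4 and fruLexA/fru4-40 samples and overlapped w1118 SH replicate 3. Irk1 was higher in Or47b1 than in w1118 GH by 1.02 (SE 0.19, adjusted p = 0.0015, edgeR), while Or67dGAL4 and fruLexA/fru4-40 were below Or47b1 by 1.35 (adjusted p = 0.00024) and 0.83 on the log2 scale (adjusted p = 0.0098). With w1118 SH as the reference the Or47b1 difference was 0.39 and did not pass (adjusted p = 0.12). Its exons overlap cnc, a transcription factor gene at 452 CPM (counts per megaread) in w1118 GH, whose difference in Or47b1 was 0.09 (adjusted p = 0.45).

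Irk3 (chr2L:18711071-18713748) read 12.3, 10 and 12.5 RPKM in w1118 GH, 18.3, 16.5 and 14.4 in w1118 SH males, 16.2, 15 and 15.3 in Or47b1, 9.31, 6.53 and 9.95 in Or67dGAL4, with 8.35 and 9.91 in fruLexA/fru4-40. The w1118 SH and Or47b1 samples were all above those of the other 3 groups. The fall in Or67dGAL4 passed (-0.45, SE 0.15, adjusted p = 0.036, edgeR) but was lost without w1118 GH replicate 1 or 3, Or67dGAL4 replicate 2 or either fruLexA/fru4-40 sample (-0.42 to -0.27, adjusted p 0.055 to 0.15). The rises of 0.49 in w1118 SH (adjusted p = 0.12) and 0.41 in Or47b1 (adjusted p = 0.054) did not pass. Against Or47b1, Or67dGAL4 was lower by 0.86 on the log2 scale (adjusted p = 0.00089) and fruLexA/fru4-40 by 0.76 (adjusted p = 0.0038).

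The leak potassium channel sandman, sand, acts in the sleep control of the fly brain (chr2R:8091696-8096948). It read 1.41, 1.61 and 1.62 RPKM in w1118 GH, 1.39, 1.03 and 1.77 in w1118 SH males, 0.628, 0.615 and 0.696 in Or47b1, 0.496, 0.334 and 0.298 in Or67dGAL4, with 0.860 and 1.07 in fruLexA/fru4-40. Counts were low throughout, at 35 to 43 per sample in w1118 GH and 5 to 9 in Or67dGAL4. All samples of Or47b1 and Or67dGAL4 were below all w1118 samples, by 1.25 (SE 0.29, adjusted p = 0.0071, edgeR) and 2.02 on the log2 scale (SE 0.30, adjusted p = 0.00031) against w1118 GH. The value of -0.68 in fruLexA/fru4-40 did not pass (adjusted p = 0.12), and fruLexA/fru4-40 was higher than Or67dGAL4 by 1.35 (adjusted p = 0.012). The overlapping gene uno differed by -0.32 in Or47b1 (adjusted p = 0.35) and -0.04 in Or67dGAL4 (adjusted p = 0.90).

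Ork1 had 0, 0 and 6 counts in w1118 SH and 8 to 21 in w1118 GH, and Task6 had 2, 2 and 3 against 7 to 18. Apart from the 6 counts of Ork1, these w1118 SH counts were at or under the 3 counts taken as the smallest signal. No comparison of Ork1, Task6 or Task7 passed the test at this depth.

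**Figure D3:**
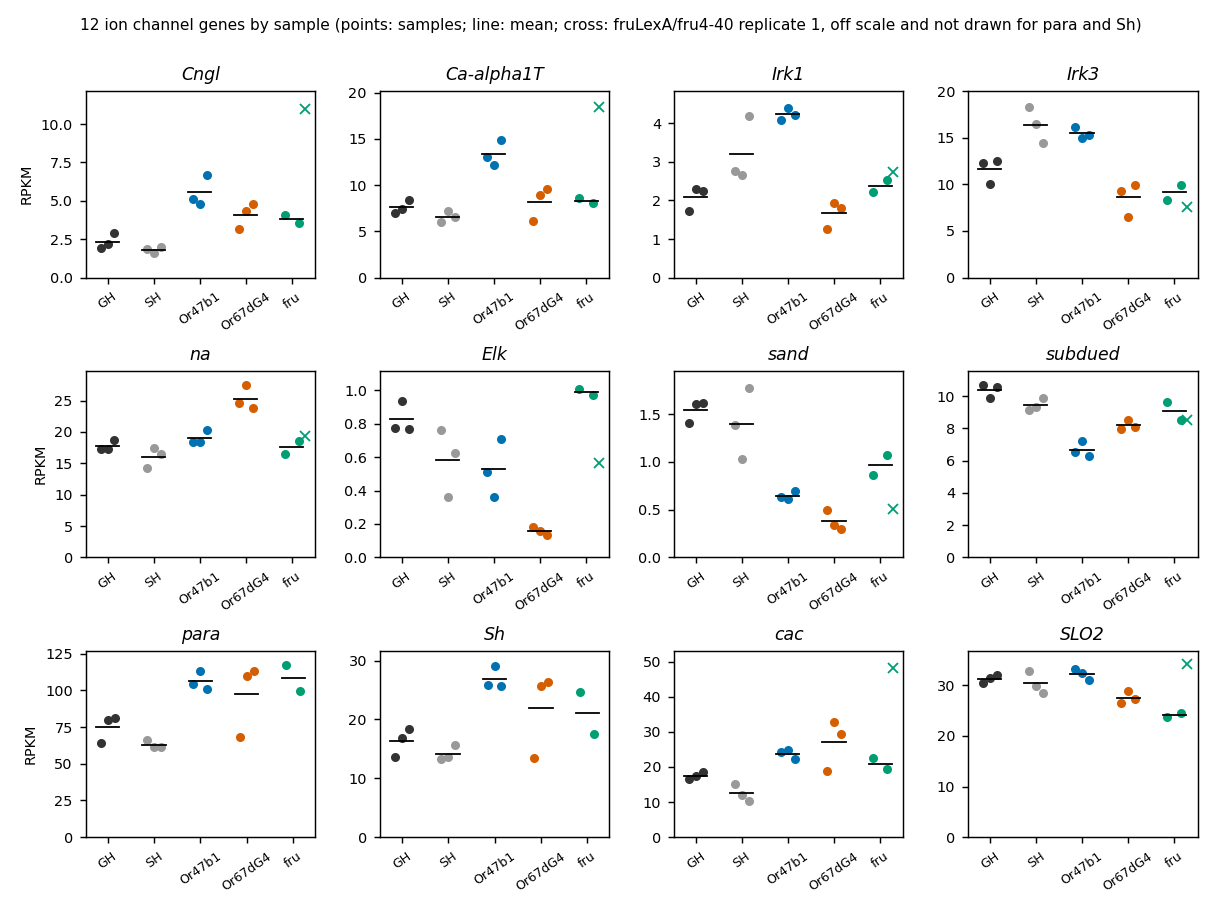
RPKM (y axis, from 0) of 12 channel genes in each sample, by group (x axis: w1118 GH, w1118 SH, Or47b1, Or67dGAL4, fruLexA/fru4-40), with the mean of the compared samples as a line and fruLexA/fru4-40 replicate 1 as a cross, off scale and not drawn for para and Sh. The Or67dGAL4 points of Elk (0.132 to 0.183) lie below all others and those of na (23.8 to 27.4) above all others, and the first Or67dGAL4 point of para, Sh and cac lies apart from the other two.

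Among the calcium channel genes, Ca-alpha1T, the T-type channel that opens near the resting potential, rose in Or47b1 (chrX:6104085-6192483). It read 6.93, 7.42 and 8.42 RPKM in w1118 GH, 5.96, 7.20 and 6.56 in w1118 SH males, 13.0, 12.2 and 14.9 in Or47b1, 6.10, 8.95 and 9.55 in Or67dGAL4, with 8.61 and 8.03 in fruLexA/fru4-40. The Or47b1 samples were above all others. The log2 fold change was 0.82 against w1118 GH (SE 0.14, adjusted p = 0.0012, edgeR), and Or67dGAL4 and fruLexA/fru4-40 were lower than Or47b1 by 0.70 (adjusted p = 0.0031) and 0.68 on the log2 scale (adjusted p = 0.0070).

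The synaptic calcium channel gene cac, cacophony (chrX:11931280-11985087), read 16.6, 17.4 and 18.5 RPKM in w1118 GH, 15.2, 12.1 and 10.4 in w1118 SH males, 24.3, 24.7 and 22.2 in Or47b1, 18.8, 32.9 and 29.4 in Or67dGAL4, with 22.4 and 19.5 in fruLexA/fru4-40. Each mutant sample was above each w1118 sample. The call was made in Or67dGAL4 (0.63, SE 0.17, adjusted p = 0.017, edgeR) and lost without its replicate 2 or 3 (0.46 to 0.58, adjusted p 0.051 to 0.085), while 0.44 in Or47b1 (adjusted p = 0.098) and 0.26 in fruLexA/fru4-40 (adjusted p = 0.33) did not pass.

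The subunit gene stj, straightjacket (chr2R:13805794-13819571), read 21.8, 22.1 and 22.9 RPKM in w1118 GH, 17.7, 18.4 and 18.4 in w1118 SH males, 24.6, 23.9 and 25.4 in Or47b1, 18.2, 25.3 and 23.2 in Or67dGAL4, with 17.6 and 17.2 in fruLexA/fru4-40. It was lower in fruLexA/fru4-40 by 0.36 against w1118 GH (SE 0.10, adjusted p = 0.021, edgeR), a call lost without w1118 GH replicate 3 or either fruLexA/fru4-40 sample (-0.37 to -0.34, adjusted p 0.057 to 0.12). Against w1118 SH the difference was -0.06 (adjusted p = 0.66). It was also lower there than in Or47b1 (-0.50, adjusted p = 0.0035) and Or67dGAL4 (-0.35, adjusted p = 0.028). Ca-alpha1D and the beta subunit Ca-beta passed in no comparison.

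Of the 6 chloride channel genes, subdued, a calcium-activated anoctamin channel, fell in both receptor mutants (chr3R:19633418-19642722). It read 10.7, 9.92 and 10.6 RPKM in w1118 GH, 9.13, 9.36 and 9.88 in w1118 SH males, 6.52, 7.25 and 6.30 in Or47b1, 7.99, 8.52 and 8.12 in Or67dGAL4, with 9.65 and 8.53 in fruLexA/fru4-40. The Or47b1 range was below all others. The log2 fold changes were -0.64 in Or47b1 (SE 0.07, adjusted p = 3e-05, edgeR) and -0.34 in Or67dGAL4 (SE 0.07, adjusted p = 0.0031). The receptor mutants differed from each other, with Or67dGAL4 higher by 0.30 (adjusted p = 0.0094), and fruLexA/fru4-40 was higher than Or47b1 by 0.44 (adjusted p = 0.0014).

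The chloride channels ClC-a (chr3R:11797244-11813207) and ClC-c (chr3L:16090454-16096151) fell in fruLexA/fru4-40. ClC-a, a ClC-2-type plasma membrane channel found in fly glia and epithelia, read 22.4, 24.6 and 23.3 RPKM in w1118 GH, 27.6, 27.1 and 24.7 in w1118 SH males, 22.0, 21.5 and 20.0 in Or47b1, 23.5, 21.3 and 21.8 in Or67dGAL4, with 17.3 and 18.9 in fruLexA/fru4-40 (log2 fold change -0.37, SE 0.08, adjusted p = 0.0036, edgeR). ClC-c, an intracellular relative, read 59.8, 59.3 and 58.5, then 56.6, 66.0 and 64.9, then 52.5, 52.4 and 54.8, then 57.0, 60.9 and 52.5, and then 47.2 and 48.0 RPKM in the same order of groups (-0.32, SE 0.08, adjusted p = 0.0082). For both genes the fruLexA/fru4-40 samples were below all others, and both calls were lost without fruLexA/fru4-40 replicate 2 (-0.30, adjusted p = 0.057 for ClC-a, and -0.30, adjusted p = 0.083 for ClC-c). Both were lower there than in Or67dGAL4 as well (-0.29, adjusted p = 0.017, and -0.26, adjusted p = 0.029).

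Best2, a bestrophin (chr3L:6245933-6256665), read 32.2, 32.5 and 31.2 RPKM in w1118 GH, 33.6, 30.2 and 30.6 in w1118 SH males, 31.5, 30.6 and 33.1 in Or47b1, 38, 35.8 and 36.2 in Or67dGAL4, with 37.9 and 36.5 in fruLexA/fru4-40. The samples of the last 2 groups lay above those of the other 3. The rises of 0.20 in Or67dGAL4 and 0.22 in fruLexA/fru4-40 (adjusted p = 0.024 in both, edgeR) were lost without w1118 GH replicate 3 or Or67dGAL4 replicate 1 (0.17 to 0.18, adjusted p 0.055 to 0.084), and without w1118 GH replicate 1 or 3 or either fruLexA/fru4-40 sample (0.20 to 0.24, adjusted p 0.053 to 0.15). Best1 read 120 to 146 RPKM over the 14 samples and ClC-b 26.6 to 34.5, with no call for either in any comparison.

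Between mutants, 10 of 38 channel genes differed between Or67dGAL4 and Or47b1 (4 higher and 6 lower in Or67dGAL4, 26.3% beside 26.8% of all genes, of which 13.0% were higher and 13.8% lower). Between fruLexA/fru4-40 and Or47b1 the count was 14 (3 higher and 11 lower in fruLexA/fru4-40, 36.8% beside 31.6%, with 16.2% higher and 15.5% lower), and between fruLexA/fru4-40 and Or67dGAL4 it was 8 (2 higher and 6 lower, 21.1% beside 24.2%, with 13.1% higher and 11.1% lower). The 11 genes lower in fruLexA/fru4-40 than in Or47b1 were NaCP60E, Shab, Shal, KCNQ, SLO2, Irk1, Irk3, Ca-alpha1T, stj, Hk and ClC-a, and the 3 higher ones were Elk, subdued and Best2. In the order of these 3 comparisons, 13, 15 and 12 genes had an unadjusted p under 0.05 (38.3%, 42.5% and 37.3% of all genes), and 14, 22 and 13 had ranges that did not overlap (41.2%, 57.5% and 47.4% of all genes). The count of 14 was 9 without Or47b1 replicate 1 (23.7% beside 25.5% of all genes). It was 10 without Or47b1 replicate 2 (26.3% beside 24.7%) and 12 without Or47b1 replicate 3 (31.6% beside 25.6%). The count also fell without fruLexA/fru4-40 replicate 2 or replicate 3, fits that leave 1 sample in that group.

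Chromosome and exon length played no role in choosing the genes, and both splits below were drawn after the values were seen. Of the 11 genes called higher against w1118 GH in at least 1 comparison, 7 lie on the X chromosome and 4 on autosomes (NaCP60E, Shal, Irk1 and Best2), and of the 9 called lower all lie on autosomes. Of the 38 tested genes, 10 lie on the X chromosome (para, na, Sh, eag, SK, Hk, Ork1, cac, Ca-alpha1T and Cngl). Their calls were 5 higher and 0 lower for Or47b1, 4 and 0 for Or67dGAL4, and 2 and 0 for fruLexA/fru4-40, with median log2 differences of 0.43, 0.40 and 0.22. The 28 autosomal genes had 2 higher and 2 lower, 2 and 5, and 1 and 5, with medians of 0.03, 0.04 and -0.09. In w1118 SH all 10 genes on the X had the lower mean, with a median of -0.23 and no call. Over the other 1749 tested genes on the X the calls were 172 higher and 107 lower for Or47b1, 221 and 277 for Or67dGAL4, and 217 and 342 for fruLexA/fru4-40.

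The channel genes are long, with a median exon length of 5246 bases beside 2029 over all genes tested, and 8 of the 10 on the X have at least 8000 bases of exon. So do 7 of the 11 genes called higher and 1 of the 9 called lower, SLO2. The 15 channel genes of that length had medians of -0.25 in w1118 SH males, 0.27 for Or47b1, 0.22 for Or67dGAL4 and 0.09 for fruLexA/fru4-40, and the 23 shorter ones -0.09, -0.01, 0.02 and -0.03. The other 470 tested genes of at least 8000 bases had medians of -0.10, 0.16, 0.05 and -0.15 in the same order, with the sign of the long channel genes in w1118 SH and Or47b1, close to 0 in Or67dGAL4 and with the opposite sign in fruLexA/fru4-40. Calls among these 470 were 113 higher and 16 lower in Or47b1, 77 and 64 in Or67dGAL4, and 26 and 127 for fruLexA/fru4-40. Among the long channel genes, the 8 on the X had medians of 0.47, 0.40 and 0.22 in the 3 mutants, in the order used above, and the 7 on autosomes 0.10, 0.07 and -0.09. The other 121 long genes on the X had medians of 0.22, 0.04 and -0.17, with 40 calls higher and 1 lower in Or47b1, 18 and 14 in Or67dGAL4, and 8 and 39 for fruLexA/fru4-40, beside 5 and 0, 3 and 0, and 2 and 0 for the 8 channel genes. The other 349 long genes on autosomes had medians of 0.14, 0.05 and -0.15. Their calls were 73 higher and 15 lower in Or47b1, 59 and 50 in Or67dGAL4, and 18 and 88 for fruLexA/fru4-40. Calls of the other long genes in Or47b1 were thus mostly higher both on the X and on autosomes. The part of chromosome or length in the results was not tested.

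Among 38 other tested genes for ion transport and channel regulation, 1 passed in w1118 SH (wwk, an anoctamin-family gene, -0.31, adjusted p = 0.038, edgeR, or 2.63% beside 0.994% of all genes), 6 rose and 2 fell in Or47b1 (21.1% beside 20.4% of all genes), 8 rose and 7 fell in Or67dGAL4 (39.5% beside 29.5%), and 3 rose and 10 fell in fruLexA/fru4-40 (34.2% beside 30.8%). In Or47b1 the largest rise was that of unc79, a subunit of the NALCN channel complex to which na belongs. It stood at 4.15 to 7.16 RPKM against 1.00 to 2.12 in w1118 GH (2.02, SE 0.29, adjusted p = 0.00027), while na itself did not pass there (0.10, adjusted p = 0.45). The predicted leak channel gene CG10864 (0.93, adjusted p = 0.00061) and Shawl, a Shaw relative (0.72, adjusted p = 0.00038), followed, and RyR, the calcium release channel of the endoplasmic reticulum, fell by 1.16 (adjusted p = 0.0016). In Or67dGAL4 the chloride importer NKCC (1.24, adjusted p = 0.032), Axs (0.63, adjusted p = 0.035) and Nckx30C, a sodium-calcium exchanger (0.52, adjusted p = 0.015), led the rises, and CG6938 fell by 0.57 (adjusted p = 0.00027).

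CG43155, a predicted leak potassium channel gene, passed in each mutant. It read 9.17 to 10.3 RPKM in w1118 GH and 6.95 to 10.1 in w1118 SH, but 1.04 to 1.16 for Or47b1, 0.428 to 0.802 for Or67dGAL4, and 1.34 and 0.928 for fruLexA/fru4-40. The ranges of mutants and w1118 did not meet (log2 fold changes -3.16, -4.14 and -3.09, adjusted p = 3.9e-07, 8.7e-08 and 3.7e-06, edgeR). Best3, a bestrophin, read 0.592 to 0.804 RPKM in w1118 GH, 0 to 0.111 in Or67dGAL4, and 0 and 0.0568 in fruLexA/fru4-40, too few counts for a firm fold change. In fruLexA/fru4-40, wwk fell by 0.68 on the log2 scale (adjusted p = 2.9e-05), and nrv2, a sodium pump subunit (0.42, adjusted p = 0.0031), Slip1, a regulator of slo channels (0.39, adjusted p = 0.039), and Stim, the sensor of stored calcium (0.31, adjusted p = 0.020), rose.

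Samples of 1 group did not vary alike in these genes. Or67dGAL4 replicate 1 lay below the mean of its group, by a median of 0.29 on the log2 scale over the 38 channel genes, while replicates 2 and 3 lay above it by 0.13 and 0.08, and the other 11 compared samples lay within -0.08 to 0.06. The median deviation of Or67dGAL4 replicate 1 was -0.34 for the 15 long channel genes, -0.04 for the 23 shorter ones, -0.25 for the neuron markers and -0.14 for the other 470 long genes. Among the neuron markers, Orco (1288 RPKM beside 1186 and 1097) and Ir25a (88.6 beside 79.9 and 76.0) were highest in this sample. ChAT lay between the other replicates, and the remaining neuron markers were lowest in this sample. Without this sample the count of calls in Or67dGAL4 was 17 in place of 11 (44.7% beside 33.0% of all genes), with 13 higher and 4 lower, and para (0.57, adjusted p = 0.0013, edgeR), Sh (0.68, adjusted p = 0.0035), Teh1 (0.53, adjusted p = 0.0024), NaCP60E (0.47, adjusted p = 0.0036), SK (0.43, adjusted p = 0.012), slo (0.40, adjusted p = 0.015), qvr (0.52, adjusted p = 0.010) and Shaw (0.28, adjusted p = 0.037) were added. Between fruLexA/fru4-40 and Or67dGAL4 it moved the count from 8 to 19 (50% beside 28.2% of all genes), of which 17 were lower in fruLexA/fru4-40. Without Or67dGAL4 replicate 2 or w1118 GH replicate 3 the count in Or67dGAL4 was 7 (18.4%, beside 21.6% and 23.3% of all genes). In fruLexA/fru4-40 it was 5 without w1118 GH replicate 1 (13.2% beside 25.3% of all genes). It fell too without fruLexA/fru4-40 replicate 2, which leaves 1 sample in that group.

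**Figure D4:**
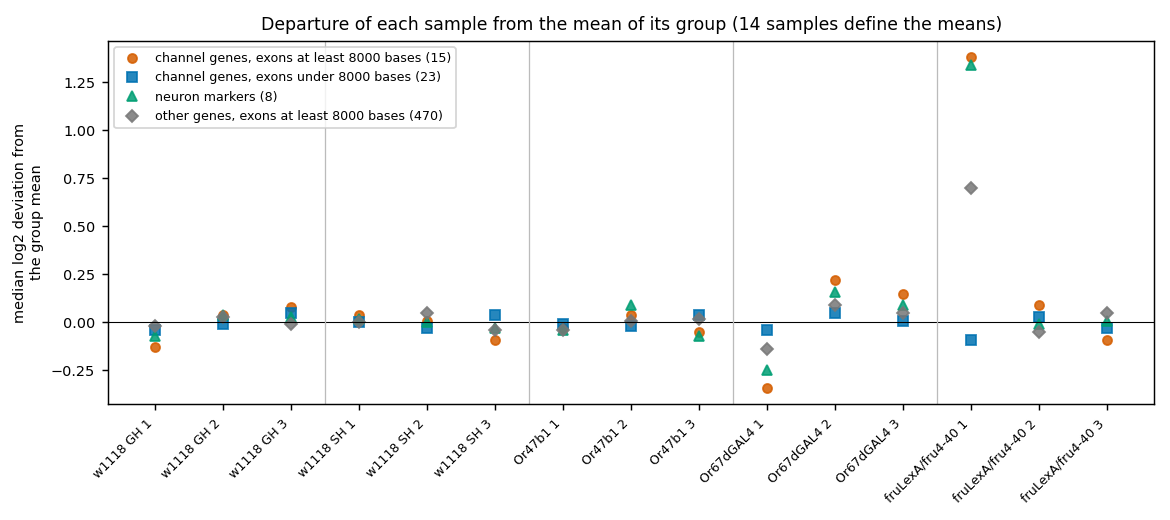
Median log2 deviation of each sample (x axis) from the mean of its group (y axis) for the 15 long and 23 shorter channel genes, the 8 neuron markers and the 470 other long genes, with the means set by the 14 compared samples. Or67dGAL4 replicate 1 lies low for long genes and neuron markers (-0.34 and -0.25), and fruLexA/fru4-40 replicate 1 lies far above its group for them (1.38 and 1.34) and not for the shorter channel genes (-0.09).

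The library labelled fruLexA/fru4-40 replicate 1 had 5907543 counts, of which the 39 genes took 1.826% and genes with at least 8000 bases of exon 20.9%, beside 12.4% to 15.2% in the 14 others. It was above all 14 for 21 channel genes, among them all 15 long ones, below all for 5 and within their range for 13. How many of all genes lay outside the range of the 14 was not counted, so these counts have no background. The sodium channel para read 376 RPKM beside 117 and 99.8 in replicates 2 and 3, while Best1 read 110 beside 130 and 138. With this library in the fit, 16 of the 28 calls against w1118 GH were lost (adjusted p 0.051 to 0.85).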

How the data were processed

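RNA was taken from dissected antennae, made into non-stranded poly(A) libraries and sequenced on a NovaSeq instrument. After trimming (FASTP) and alignment by MapSplice2 to the dm6 build, the authors took out duplicates, poorly mapped and unpaired reads, and counted reads per gene with featureCounts, and the deposited values are raw counts. Their versions, and the annotation release, are not given in the sources used here. Because strand was not kept, reads of overlapping genes cannot be told apart, and 12 of the 39 genes have exons that overlap another gene. A floor of 3 counts (0.2012 to 0.35 CPM in the 14 compared samples) was taken as the smallest signal. Low counts above it still carry counting error, such as 6 to 9 for Elk and 5 to 9 for sand in Or67dGAL4.

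All 39 symbols were found, 37 by FlyBase ID and 2 (para and Ca-beta) by their dm6 position. The members, classes and lists were chosen with earlier results of these data known. Genes called in a comparison with w1118 GH are given in every sample. Of the others, values were to be named only for the highest of each class and for up to 3 rises and 3 falls per comparison of the other list, and Teh1, KCNQ, Shab, Hk, Ca-alpha1D and the overlapping genes were named after their values were seen. Counts were fitted with edgeR 4.0.16 in R 4.3.3 (TMM scaling, filterByExpr, 1 quasi-likelihood fit over 14 samples without covariates, common biological coefficient of variation 0.151), with Benjamini-Hochberg adjustment over 10358 genes and a threshold of 0.05. SE is in log2 units. A gene's ranges do not overlap where every sample of one group exceeds every sample of the other. The p-values weigh a group difference against the spread between samples within groups, estimated over all 5 groups and in part shared between genes. Alternatives were DESeq2 1.42.0, RLE or total-count scaling, no filter or at least 10 counts in every sample, the compared groups alone, all 15 samples, a replicate block, w1118 SH as reference, a threshold of 0.01 and leaving out each sample. The fits were tested on simulated data.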

Additional observations from a re-analysis of the deposited data

Results flagged for a closer look

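The library labelled fruLexA/fru4-40 replicate 1, which carries a quality warning and enters no comparison, held 16 channel genes above all 14 other samples and at 2 times the mean of replicates 2 and 3 or more. Among sodium channel genes these were para at 376 RPKM, Teh1 at 41.9 and NaCP60E at 21.8. Among potassium channel genes they were slo at 204 RPKM, qvr at 189, SK at 166, Hk at 152, Sh at 106, Shab at 46.9, eag at 34.8, Shaw at 33.9 and Shal at 16.6. The calcium channel genes cac (48.2 RPKM), Ca-beta (44.0) and Ca-alpha1T (18.4) and the cyclic-nucleotide-gated subunit Cngl (11) completed the list. The share of all genes that met the same conditions was not counted. In the same library the neuron markers stood a median of 1.34 above the group mean on the log2 scale and the 470 other long genes 0.70 above it. The neuron markers were split. Orco (617 RPKM beside 983 and 1110 in replicates 2 and 3) and Ir25a (66.9 beside 92.5 and 97.2) were lower, and the others higher. The part of neuron content or gene length in the channel values was not tested.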

How the results depend on the processing

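Of 641 values recomputed for the 28 gene calls against w1118 GH, 547 kept their direction and their side of the threshold, 94 lost the call and 0 reversed. Elk, na and sand in Or67dGAL4, sand and Cngl in Or47b1, and subdued in both held under every alternative that gave a value, and 12 calls held without each sample in turn. The calls lost were 0 of 28 with DESeq2, 1 with RLE size factors, 5 on total counts, 4 without the filter, 1 of 25 with at least 10 counts in every sample, 5 with the compared groups only, 16 with all 15 samples and 3 with w1118 SH as the reference.

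The count of channel genes called in w1118 SH was 0, and 3 with DESeq2. With all 15 samples it was 4 in place of 9 in Or47b1 (10.5% beside 12.1% of all genes) and 4 in place of 11 in Or67dGAL4 (10.5% beside 15.9%). It was 5 in place of 10 between Or67dGAL4 and Or47b1 (13.2% beside 13.9%), and 5 in place of 14 between fruLexA/fru4-40 and Or47b1 (13.2% beside 21.4%). With w1118 SH as the reference it was 20 for Or47b1, 25 for Or67dGAL4 and 14 for fruLexA/fru4-40 (in place of 8), beside 28.4%, 37.5% and 34.0% of all genes. With the compared groups only it was 7 in Or67dGAL4 (18.9% beside 25.2% of all genes). Between fruLexA/fru4-40 and Or67dGAL4 it was then 4 in place of 8 (10.5% beside 10.2%). At a threshold of 0.01 it was 5 in Or67dGAL4, 4 in fruLexA/fru4-40, 6 between Or67dGAL4 and Or47b1, 7 between fruLexA/fru4-40 and Or47b1, and 4 between fruLexA/fru4-40 and Or67dGAL4. The share of all genes at 0.01 was not taken, so these counts have no background to be read against. Leaving out 1 sample gave 0 to 3 for w1118 SH, 6 to 12 for Or47b1, 7 to 17 for Or67dGAL4, 2 to 10 for fruLexA/fru4-40, 7 to 13 between Or67dGAL4 and Or47b1, 5 to 15 between fruLexA/fru4-40 and Or47b1, and 5 to 19 between fruLexA/fru4-40 and Or67dGAL4. The share of all genes moved too. The 6 calls in Or47b1 were 15.8% beside 15.2% to 18.2%. Without Or67dGAL4 replicate 1 the highest counts were 7.89% beside 1.43% in w1118 SH, 31.6% beside 22.4% in Or47b1 and 26.3% beside 33.6% in fruLexA/fru4-40. Between mutants, 7 was 18.4% beside 19.1%, 13 was 34.2% beside 30.0% and 15 was 39.5% beside 35.1%. Shares for Or67dGAL4 are given above. The lowest counts for fruLexA/fru4-40 came from fits that leave 1 sample in that group. The cause of these shifts was not tested.

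Samples with the same replicate number did not deviate together (mean r = 0.052 over 26 pairs, from -0.323 to 0.377, and 4 of 14 samples closest to their own number). With a replicate block the counts were 0 for w1118 SH, 10 for Or47b1, 13 for Or67dGAL4 and 11 for fruLexA/fru4-40 against w1118 GH. Between mutants they were 11, 14 and 10, and the block lost none of the 28 calls. The shares of all genes were 1.59%, 20.7%, 30.1% and 32.0% against w1118 GH, and 27.8%, 32.9% and 26.9% between mutants. Depth limits Ork1, Task6, Task7, CngA, Elk and sand, which had under 70 counts in every compared sample.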
